A study of Mus musculus with 6 samples.

Results

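The complement and coagulation systems were examined in mouse liver through 55 genes, chosen by name as members of these systems: 28 complement components and regulators, and 27 genes of clotting and fibrinolysis, with the serpins left out. All 55 were found, each as a single entry, among the 31950 genes of the expression table. Expression had been measured by poly(A) RNA-seq in 3 WT livers and 3 *β-cateninΔ(ex3)/+* livers, all from C57BL/6 mice labelled as 8 weeks old. In the mutant animals 1 *Ctnnb1* allele lacked exon 3, which encodes the phosphorylation sites that mark β-catenin for degradation, so that the protein accumulates; the WT animals carried no listed allele or agent. The study deleted the exon after birth with a tamoxifen-inducible albumin Cre, whose livers it gives the same genotype name, or with Cre adenovirus, which gives a mosaic liver. Its RNA-seq methods do not name the driver, and its mice with a constitutive albumin Cre did not live to the labelled age. Values are FPKM, fragments per kilobase of transcript scaled to the mapped fragments of the library, which compare genes per length as well as livers with each other.

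Complement and clotting factors are plasma proteases, cofactors and inhibitors that act in ordered cascades, and hepatocytes secrete most of them. The classical, lectin and alternative pathways of complement meet at C3 and lead to the terminal pathway, in which C5 to C9 assemble a pore in a target membrane. The clotting cascade ends with thrombin cutting fibrinogen to fibrin, the contact system can start it, and plasmin dissolves the clot. Some members come largely from other cells: adipsin (*Cfd*) from adipocytes, properdin (*Cfp*) from myeloid cells, factor VIII (*F8*) from endothelial cells, and collectin-11 (*Colec11*) in mouse liver largely from stellate cells.

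The livers differed by more than the *Ctnnb1* allele. *Xist*, transcribed from the inactive X chromosome of females, lay between 20.3 and 22.2 FPKM in the WT livers and at or below 0.0146 in the mutant livers, while the Y-linked *Ddx3y* lay at or below 0.0156 in the former and between 5.83 and 5.98 in the latter. The fetal and neonatal genes *Afp* (601 to 612 against 2.38 to 2.81 FPKM) and *Igf2* (803 to 847 FPKM against 0 listed in all mutant livers) were abundant in the WT libraries only. Genotype, sex and the difference in these developmental genes therefore cannot be told apart for any member below. The β-catenin targets *Glul*, *Oat* and *Axin2* were higher in the mutant livers, with log2 fold changes of 2.59, 5.19 and 1.86, and gene-level FPKM of *Ctnnb1* (25.9, 28.0 and 27.3 in WT, 25.4, 25.2 and 25.0 in mutant livers) does not read the deleted exon. Hepatocyte genes were the most abundant marker list in both groups, with a summed level of 89134 to 91372 FPKM in WT and 45462 to 45674 FPKM in mutant livers.

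Among the members, complement genes were more often higher in the *β-cateninΔ(ex3)/+* livers, and clotting and fibrinolysis genes more often lower. The sharpest rises were in adipsin (*Cfd*), the pore-forming components *C6*, *C9*, *C8b* and *C8a*, the minor C4 gene *C4a* and the C4b-binding protein *C4bp*. The falls past 2-fold were in collectin-11 (*Colec11*) and kininogen (*Kng1*). Summed over the 28 complement members, expression was 5736 ± 57.6 FPKM in WT and 6517 ± 46.4 in mutant livers (mean ± SD, n = 3 each), and over the 27 clotting members 8782 ± 73.4 against 6507 ± 22.9. Among complement members the largest rise in FPKM was in *C3* (means of 1457 and 2116 FPKM), and the summed complement regulators fell from 2530 to 2029 FPKM. All 55 together made up 3.26% ± 0.0230 of all FPKM in WT and 2.78% ± 0.0402 in mutant livers.

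Of the 55 members, 53 had a mean of at least 0.5 FPKM over the 6 livers and were tested with limma on log2(FPKM + 1), together with all other genes past that minimum. *Cfd* passed it only through the mutant livers, so a difference was built into its test; *C7* and *Plat* did not reach it. With an adjusted p under 0.05 and at least a 2-fold change, 7 members were higher in the mutant livers (13.2%, where 8.17% of all tested genes were) and 2 were lower (3.77%, against 4.52% of all tested genes). At any fold, 24 were higher (45.3%, against 37.4% of all genes) and 23 lower (43.4%, against 19.6%). The 3 mutant livers did not overlap the 3 WT livers for 48 of the 53 (90.6%, against 66.0% of all genes).

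The split between both systems was in their medians too. Among the 27 complement genes tested, 18 were higher and 5 lower at any fold, with a median log2 fold change of 0.34; among the 26 clotting and fibrinolysis genes, 6 were higher and 18 lower, with a median of -0.37. The median of all genes tested was 0.14, and that of the 53 members 0.11. Of 9 hepatocyte markers tested, 7 were lower and 1 higher at any fold. Their median was -0.59, below that of the clotting members, so the fall was not particular to clotting genes. Scaling the libraries by median ratios or quantiles moved the median of all genes by -0.14 and -0.16, and the share of higher genes among all 2-fold calls from 64.4% to 53.1% and 49.5%. With median ratios complement then had 14 higher and 6 lower and clotting 3 higher and 18 lower, where 27.1% of all genes were higher and 27.0% lower at any fold. With quantiles complement had 13 higher and 8 lower and clotting again 3 and 18, against 25.1% and 29.2% of all genes. The complement median fell to 0.14 and 0.11, and the clotting median to -0.56 under both. With any 1 liver left out and under each other fit, the 9 members past 2-fold kept that call, that of *Cfd* being built in. At a threshold of 1.5 on the log2 scale only 6 higher and 0 lower members remained, *C8a*, *Colec11* and *Kng1* falling short. Because whole liver was sequenced, fewer cells of a type and less RNA per cell cannot be told apart.

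**Figure D1:**
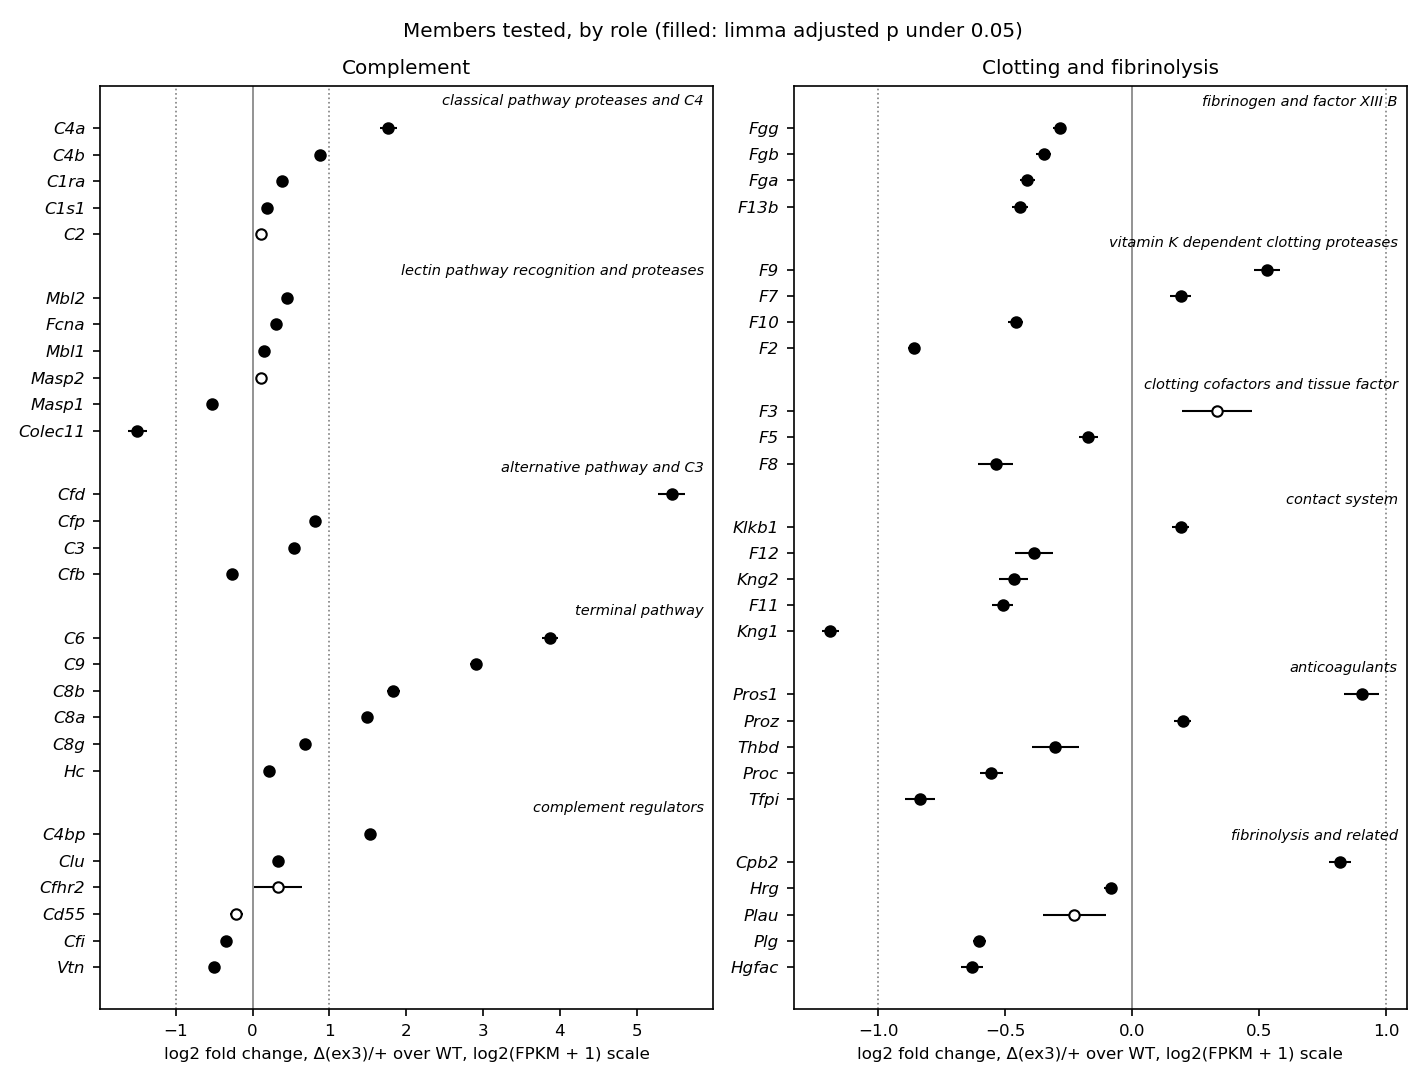
Log2 fold change of each of the 53 members tested, *β-cateninΔ(ex3)/+* over WT on the log2(FPKM + 1) scale, grouped by role, with complement on the left and clotting and fibrinolysis on the right. The x axes differ in range, bars are standard errors from limma over 3 livers a group, filled points have an adjusted p under 0.05, and dotted lines mark 2-fold; 7 complement genes lie beyond the right-hand line, and *Colec11* and *Kng1* beyond the left-hand one.

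In the terminal pathway 6 of 7 genes were tested. All 6 were higher in the mutant livers at any fold (against 37.4% of all tested genes) and 4 past 2-fold (against 8.17%). Their median log2 fold change was 1.66, and the call of *Hc* was lost with median-ratio and quantile scaling. Summed over the 7 genes, the level was 316 to 321 FPKM in WT and 649 to 678 FPKM in mutant livers. The size of the rise was unequal, so that *C6* and *C9*, the scarcest tested components in WT livers, rose most, and *Hc* (C5) and *C8g*, the most abundant, rose least.

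*C6* (chr15:4727175-4814967, + strand), the component that binds the C5 fragment and starts pore assembly, was at 2.39, 1.54 and 2.07 FPKM in the WT livers and at 43.0, 43.1 and 41.7 FPKM in the mutant livers. Every mutant liver was far above every WT liver, and the means differed 21.3-fold. The log2 fold change was 3.87 ± 0.11 (SE; limma adjusted p = 1.44e-06). *C9* (chr15:6445327-6498751, + strand), the protein that polymerizes into the pore, was at 5.83, 7.31 and 6.46 FPKM in WT and at 56.9, 54.0 and 54.6 FPKM in mutant livers. The groups were again widely separated, with an 8.45-fold ratio of means and a log2 fold change of 2.90 ± 0.078 (SE; limma adjusted p = 1.2e-06).

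C8 is built from 3 chains encoded by separate genes. *C8b* (chr4:104766317-104804548, + strand) was at 26.5, 27.3 and 25.9 FPKM in WT and at 105, 102 and 85.4 FPKM in mutant livers, a 3.67-fold ratio of means (log2 fold change 1.83 ± 0.083 SE, limma adjusted p = 1.15e-05). Its convergent neighbour *C8a* (chr4:104815679-104876395, - strand), whose end lies 11.1 kb away with no annotated gene between, was at 48.8, 49.9 and 44.8 FPKM in WT and at 129, 139 and 139 FPKM in mutant livers. The third mutant liver was the lowest of its group for *C8b* but not for *C8a*, and neither gene overlapped between groups. *C8a* had a 2.84-fold ratio of means and a log2 fold change of 1.49 ± 0.055 (SE; limma adjusted p = 4.66e-06). *C8g* on chromosome 2, which encodes the lipocalin-like chain, was the most abundant terminal gene, at 139, 134 and 138 FPKM in WT and 227, 222 and 214 FPKM in mutant livers. It was higher in every mutant liver but by less than 2-fold (log2 fold change 0.68 ± 0.035 SE, limma adjusted p = 1.83e-05).

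The transcripts of the 3 chains were therefore closer in level in the mutant livers. The ratio of *C8g* to *C8b* FPKM was 5.25, 4.89 and 5.34 in WT and 2.16, 2.18 and 2.50 in mutant livers, and that of *C8a* to *C8b* went from 1.80 ± 0.0624 to 1.41 ± 0.204 (SD, n = 3). *Hc*, which encodes C5, was at 97.3, 101 and 98.8 FPKM in WT and at 116, 116 and 114 FPKM in mutant livers (log2 fold change 0.22 ± 0.03 SE, limma adjusted p = 0.00139). With median-ratio and quantile scaling the log2 fold change of *Hc* was 0.028 and 0.026, and it did not pass (limma adjusted p = 0.517 and 0.524). *C7*, which joins C6 in the growing complex, was listed at 0, 0 and 0.0153 FPKM in WT and at 0.297, 0.296 and 0.416 FPKM in mutant livers, too low for the test. *C7* lies 174 kb from *C6* on chromosome 15, with 3 annotated genes between them, and stayed below 0.5 FPKM in every liver.

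**Figure D2:**
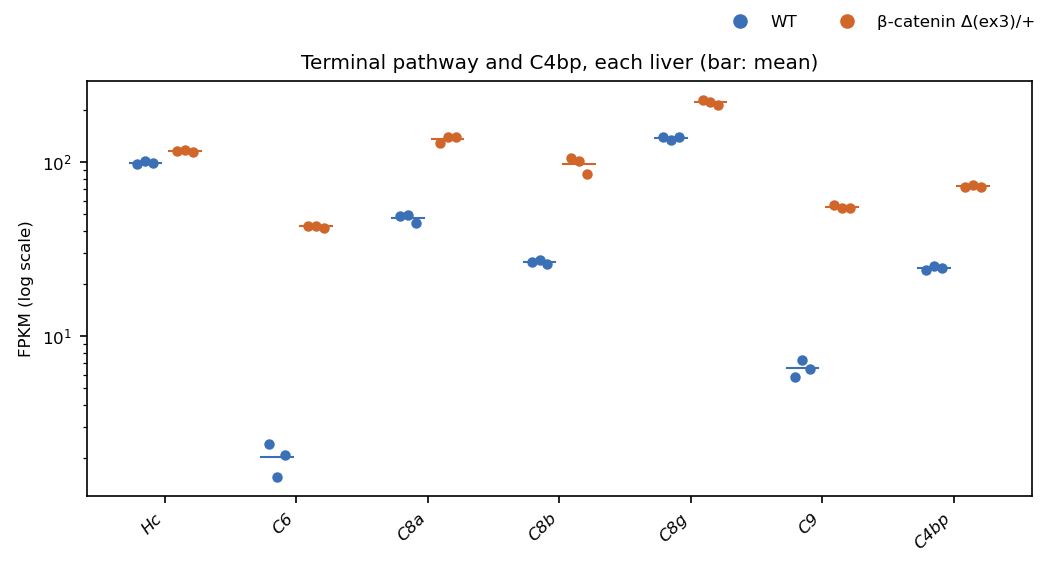
FPKM (log scale) of the 6 tested terminal pathway genes and *C4bp* in each of the 3 WT and 3 *β-cateninΔ(ex3)/+* livers; points are livers and bars group means. All mutant points lie above all WT points for each of the 7 genes, by the widest margin for *C6* (means of 2.00 and 42.6 FPKM).

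The windows upstream of 3 of these genes are shown because their transcripts rose together; each runs from 250 bases before to 50 bases after the start that RefSeq gives, in build GRCm38.p6 and on the gene's own strand. Capitals mark matches, on either strand, to letters bound by liver factors or by the DNA-binding partners of β-catenin: GTTAAT (HNF1), TTGCNNAA (C/EBP), CAAAGTCCA (HNF4), and CTTTGA or CTTTGT (TCF/LEF). The last pair share their first letters, and the reverse complement of the HNF4 letters also holds CTTTG. The windows are chr4:104876349-104876648 on the - strand for *C8a*, chr4:104766067-104766366 on the + strand for *C8b*, and chr15:6445096-6445395 on the + strand for *C9*.
C8a: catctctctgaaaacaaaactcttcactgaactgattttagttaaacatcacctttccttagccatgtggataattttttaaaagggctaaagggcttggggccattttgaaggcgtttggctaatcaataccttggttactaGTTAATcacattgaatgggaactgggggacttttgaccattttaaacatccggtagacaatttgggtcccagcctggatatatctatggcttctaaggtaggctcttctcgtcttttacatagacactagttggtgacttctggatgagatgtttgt
C8b: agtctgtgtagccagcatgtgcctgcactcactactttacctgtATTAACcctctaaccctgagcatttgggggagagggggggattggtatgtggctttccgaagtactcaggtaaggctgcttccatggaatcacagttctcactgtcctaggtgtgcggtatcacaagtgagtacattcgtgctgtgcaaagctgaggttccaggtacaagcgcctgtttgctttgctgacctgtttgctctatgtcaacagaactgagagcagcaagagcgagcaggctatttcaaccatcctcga
C9: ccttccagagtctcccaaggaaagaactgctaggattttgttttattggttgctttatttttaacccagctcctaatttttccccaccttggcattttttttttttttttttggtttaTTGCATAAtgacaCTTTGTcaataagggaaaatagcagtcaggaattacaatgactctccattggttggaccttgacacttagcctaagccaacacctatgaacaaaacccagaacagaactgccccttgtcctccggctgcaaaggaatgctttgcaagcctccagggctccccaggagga

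The windows of *C8a* and *C8b* each held 1 HNF1 match and no TCF/LEF match, and that of *C9* held 1 TCF/LEF and 1 C/EBP match, while those of *C6* and *Cfd* held none of the letters. Of the 55 members, 42 had such a window. HNF1 letters were in 16 of the 42 (38.1%), against 4.49% of the windows of the same length for 9334 tested genes, C/EBP letters in 12 (28.6% against 8.89%), TCF/LEF letters in 12 (28.6% against 23.8%) and HNF4 letters in 0 (against 0.589%). Of the 6 members with a window that rose past 2-fold, 3 held HNF1 letters and 1 held TCF/LEF letters. A match is a description of the letters in these windows and shows no binding. No window was in hand for *C2*, *C4a*, *C4b*, *Cfb*, *Cfi*, *Clu*, *Kng1*, *Masp1*, *Plat*, *Plau*, *Plg*, *Proc* and *Thbd*.

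In the alternative pathway and C3, 3 of 4 genes rose and 1 fell at any fold, where 37.4% of all tested genes were higher and 19.6% lower. Adipsin, encoded by *Cfd* (chr10:79890853-79892655, + strand), is the protease that cuts factor B. *Cfd* was at 0.590, 0.0880 and 0 FPKM in the WT livers and at 53.2, 50.4 and 51.5 FPKM in the mutant livers. The lowest mutant liver was 85.5 times the highest WT liver, the widest separation among the members, and 1 WT library had no signal. The log2 fold change was 5.46 ± 0.17 (SE). Because *Cfd* passed the FPKM minimum only through the mutant livers, its adjusted p carries no weight and is left out.

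*Cfd* is also an adipocyte marker, and other genes of that list were measured beside it. Of the 6 tested, 5 were higher and 1 lower past 2-fold, but *Cfd*, *Adipoq*, *Retn* and *Plin1* reached the FPKM minimum only through the mutant livers, so that these 4 calls were built in. *Adipoq*, which encodes adiponectin, was at 0.0734, 0 and 0 FPKM in WT and at 5.86, 4.78 and 6.26 FPKM in mutant livers, and *Retn* (resistin) was listed at 0 in all WT livers and at 3.35 to 3.50 FPKM in mutant livers. *Lpl*, the list's other abundant gene, was lower, at 42.0 to 43.8 FPKM in WT and 5.60 to 5.81 FPKM in mutant livers. The summed level of the list was 43.0 to 44.5 FPKM in WT and 69.3 to 73.6 FPKM in mutant livers. That sum includes *Cfd* itself (means of 0.226 and 51.7 FPKM), so its rise is no separate sign of the other adipocyte genes. In WT livers most of the sum was *Lpl* (means of 42.7 and 5.72 FPKM). The part of fat tissue in the *Cfd* level was not tested.

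*C3* (chr17:57203970-57228136, - strand), on which all activation pathways converge, was at 1428, 1485 and 1457 FPKM in WT and at 2109, 2129.9 and 2108 FPKM in mutant livers. No mutant liver came near the WT range, although the change was modest (log2 fold change 0.54 ± 0.023 SE, limma adjusted p = 8.28e-06). *C3* was the third most abundant member in WT and the first in mutant livers, where it passed *Vtn* and *Fgg*. Properdin (*Cfp*), which stabilizes the C3 convertase, was at 30.5, 26.5 and 31.0 FPKM in WT and 53.7, 52.0 and 51.3 FPKM in mutant livers (log2 fold change 0.82, limma adjusted p = 0.000142). Factor B (*Cfb*), the substrate of adipsin, was lower, at 486, 506 and 496 against 418, 411 and 405 FPKM (log2 fold change -0.27, limma adjusted p = 0.000378). The level of *Cfb* is uncertain, because 81% of the 100-base windows of its transcript also occur in the annotated gene *Gm20547*.

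The classical pathway genes leaned the same way, with 4 of 5 higher at any fold (against 37.4% of all tested genes) and *C4a* past 2-fold. *C4b* (chr17:34728380-34743882, - strand), the main C4 gene, was at 164, 158 and 165 FPKM in WT and at 299.6, 298 and 299.9 FPKM in mutant livers. The mutant livers were almost identical to each other and all well above WT (log2 fold change 0.88 ± 0.029 SE, limma adjusted p = 2.83e-06). *C4a* (chr17:34809092-34823464, - strand), a close copy that lies 65.2 kb from it and encodes the sex-limited protein, was at 1.16, 0.851 and 1.23 FPKM in WT and 6.76, 5.33 and 6.14 FPKM in mutant livers. The means differed 5.63-fold, and the log2 fold change, which the added 1 FPKM shrinks at this level, was 1.77 ± 0.11 (SE; limma adjusted p = 4.08e-05).

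Both C4 genes share 16.5% of their 100-base windows, so reads of *C4b* could have been counted at *C4a*. The ratio of *C4a* to *C4b* was 0.00706, 0.00539 and 0.00745 in WT and 0.0226, 0.0178 and 0.0205 in mutant livers, so *C4a* was higher relative to its copy in every mutant liver. Among the proteases of the C1 complex, *C1ra* had a log2 fold change of 0.38 (limma adjusted p = 0.000996), which was 0.11 with quantile scaling and did not pass there (limma adjusted p = 0.0999). *C1s1* had one of 0.19 (limma adjusted p = 0.00199), which was -0.00031 and 0.00013 with median-ratio and quantile scaling and passed with neither. *C1ra* shares 35.9% of its windows with other genes, chiefly its copy *C1rb*. *C2*, which supplies the protease of the C3 convertase, had overlapping groups, at 19.4, 20.5 and 19.4 against 21.9, 20.2 and 22.3 FPKM (limma adjusted p = 0.122), and shares 53.2% of its windows with *Gm20547*.

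In the lectin pathway the sugar-binding proteins diverged. *Mbl2* (chr19:30232942-30239687, + strand), a mannose-binding lectin and the most abundant gene of the group, was at 292, 319 and 290.2 FPKM in WT and at 408, 412 and 414 FPKM in mutant livers. The groups did not overlap (log2 fold change 0.45 ± 0.043 SE, limma adjusted p = 0.000272). Ficolin A (*Fcna*) had a log2 fold change of 0.31 (limma adjusted p = 0.0019), which was 0.12 and 0.065 with median-ratio and quantile scaling and passed with neither (limma adjusted p = 0.0631 and 0.243). *Mbl1*, the second mannose-binding lectin, had one of 0.15 (limma adjusted p = 0.0184), which turned to -0.041 and -0.030 with these scalings and did not pass without the first WT liver (limma adjusted p = 0.0544).

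*Colec11* (chr12:28594173-28623377, - strand), the collectin that recognizes sugars and recruits the same proteases, went the other way. It was at 42.8, 42.7 and 43.5 FPKM in WT and at 16.2, 11.7 and 16.2 FPKM in mutant livers. The WT livers were tightly grouped and the second mutant liver was the lowest (2.92-fold lower mean; log2 fold change -1.5 ± 0.12 SE, limma adjusted p = 0.000145). Of the serine proteases that dock onto these proteins, *Masp1* was lower (log2 fold change -0.52, limma adjusted p = 0.000338), and *Masp2* had overlapping groups, at 32.6, 33.3 and 36.1 against 35.4, 36.8 and 37.8 FPKM (limma adjusted p = 0.13). The ratio of *Masp1* to *Masp2* was 0.429 ± 0.0306 in WT and 0.268 ± 0.00494 in mutant livers (SD, n = 3).

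*Colec11* is itself among the 10 stellate cell markers, and all 10 were lower in the mutant livers, 5 of them past 2-fold. The summed level of that list was 182 to 190.0 FPKM in WT and 68.9 to 80.0 FPKM in mutant livers. *Reln* went from 7.17 to 7.28 FPKM in WT to 0.612 to 0.763 FPKM in mutant livers, and *Lrat*, needed for retinyl ester storage, from 4.91 to 5.36 FPKM to 1.16 to 1.46 FPKM. *Colec10*, the partner of *Colec11* in heteromers, was at 12.8 to 14.2 FPKM in WT and 2.54 to 3.16 FPKM in mutant livers. The part of stellate cells in the *Colec11* level was not tested.

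**Figure D3:**
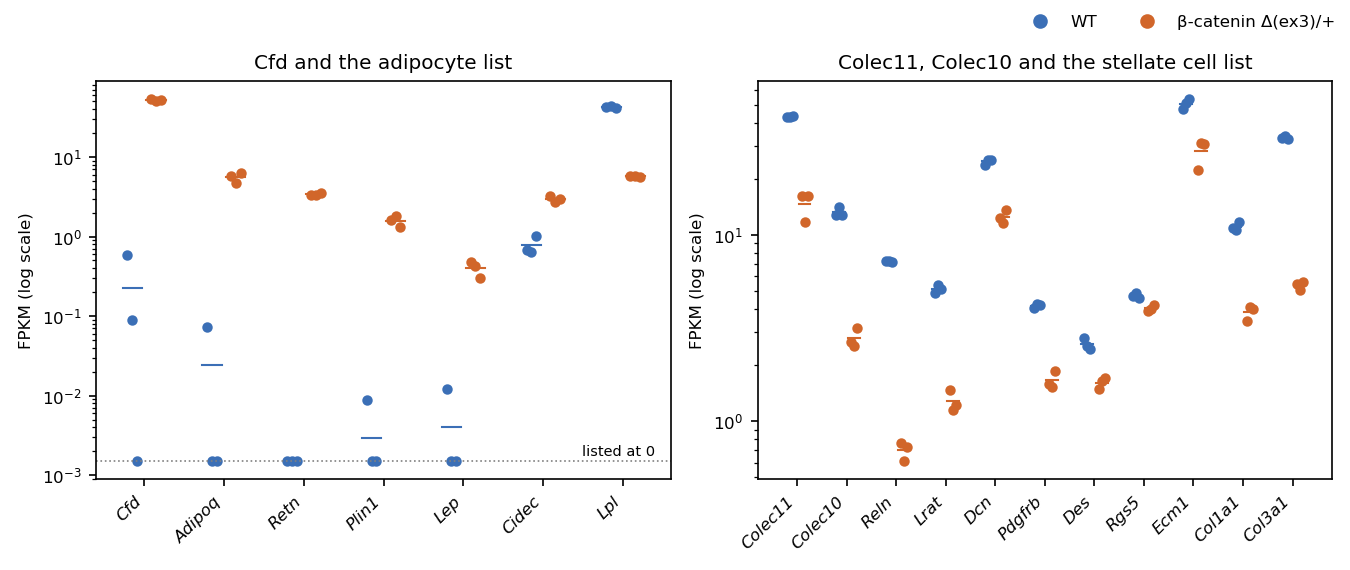
FPKM (log scale) in each of the 3 WT and 3 *β-cateninΔ(ex3)/+* livers for *Cfd* and the rest of the adipocyte marker list (left) and for *Colec11*, *Colec10* and the rest of the stellate cell marker list (right); points are livers, bars group means, and values of 0 are drawn on the dotted line. *Cfd*, *Adipoq* and *Retn* are high in the mutant livers only, *Lpl* is lower there, and all genes on the right are lower in the mutant livers.

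The complement regulators showed no common direction, with 2 of 6 higher, 2 lower and 2 not passing the test. Each direction held 33.3% of them, where 37.4% of all tested genes were higher and 19.6% lower at any fold. *C4bp* (chr1:130634773-130661632, - strand), which encodes the C4b-binding protein that dismantles the classical and lectin C3 convertase, was at 23.9, 25.2 and 24.6 FPKM in WT and at 71.6, 73.9 and 71.7 FPKM in mutant livers. It had a 2.95-fold ratio of means with little spread in either group (log2 fold change 1.52 ± 0.037 SE, limma adjusted p = 8.1e-07). Vitronectin (*Vtn*, chr11:78499091-78502324, + strand), which blocks insertion of the pore, was the most abundant member in WT livers at 1878, 1863 and 1900.4 FPKM and lay at 1360.0, 1311 and 1329 FPKM in mutant livers. Every mutant liver was below every WT liver (log2 fold change -0.50 ± 0.023 SE, limma adjusted p = 1.26e-05).

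Clusterin (*Clu*), the other plasma inhibitor of pore insertion, was higher (log2 fold change 0.34, limma adjusted p = 0.000384), and factor I (*Cfi*), the protease that inactivates C3b and C4b, was lower (log2 fold change -0.35, limma adjusted p = 0.00025). *Cd55*, the membrane decay-accelerating factor, was at 2.55, 2.70 and 2.30 FPKM in WT and at 2.30, 1.79 and 2.05 FPKM in mutant livers (log2 fold change -0.21, limma adjusted p = 0.0779). It passed as lower with median-ratio and quantile scaling and without the first mutant liver (limma adjusted p = 0.0152, 0.0119 and 0.0478). *Cfhr2*, a factor H-related gene, was at 39.5, 45.2 and 38.9 FPKM in WT and at 39.2, 87.7 and 41.1 FPKM in mutant livers. The second mutant liver alone set its positive log2 fold change of 0.33 (limma adjusted p = 0.393), which was -0.035 without that library, and *Cfhr2* shares 19.9% of its windows with other genes.

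The upstream window of *C4bp*, at chr1:130661569-130661868 on the - strand in GRCm38.p6, is shown as that of the regulator that rose past 2-fold. It held 1 HNF1 match, in capitals, and none of the other letters.
C4bp: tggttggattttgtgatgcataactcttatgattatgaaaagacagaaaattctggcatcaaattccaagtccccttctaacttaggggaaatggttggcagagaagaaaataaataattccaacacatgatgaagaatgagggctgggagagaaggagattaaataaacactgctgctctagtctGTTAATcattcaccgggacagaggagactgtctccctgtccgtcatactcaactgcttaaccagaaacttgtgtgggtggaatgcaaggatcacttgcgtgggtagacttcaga

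Fibrinogen and its cross-linking partner were lower in the mutant livers. All 4 genes of the group were lower at any fold (against 19.6% of all tested genes) and none past 2-fold. The 3 chains of fibrinogen are encoded side by side on chromosome 3, with 11026 bases between *Fgg* and *Fga*, 6513 bases between *Fga* and *Fgb* and no annotated gene between. *Fgg* (chr3:83007724-83015049, + strand), the most abundant clotting gene, was at 1785, 1871 and 1803 FPKM in WT and at 1515, 1485 and 1474 FPKM in mutant livers. No liver of one group reached the other (log2 fold change -0.29 ± 0.027 SE, limma adjusted p = 0.000241).

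*Fga* was at 1309.9, 1389 and 1329 FPKM in WT and at 1019.8, 999.6 and 1004 FPKM in mutant livers, and *Fgb* at 1075, 1141 and 1089 against 864, 857 and 872 FPKM. Both were lower in every mutant liver, with log2 fold changes of -0.41 and -0.35 (limma adjusted p = 7.22e-05 and 0.000156). The transcripts of the chains stayed close to a common ratio. That of *Fgb* to *Fga* was 0.821 ± 0.000616 in WT and 0.858 ± 0.0105 in mutant livers, and that of *Fgg* to *Fga* 1.36 ± 0.00795 against 1.48 ± 0.00988 (SD, n = 3). *F13b*, the carrier subunit of the enzyme that cross-links fibrin, had a log2 fold change of -0.44 (limma adjusted p = 8.04e-05).

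The windows upstream of *Fga* (chr3:83025903-83026202, + strand) and *Fgb* (chr3:83049814-83050113, - strand), in GRCm38.p6 from RefSeq, are shown because these neighbours moved together. Each held 1 HNF1 and 1 C/EBP match, in capitals, and no TCF/LEF match, so HNF1 letters stood before genes that rose (*C8a*, *C8b*, *C4bp*) and before genes that fell.
Fga: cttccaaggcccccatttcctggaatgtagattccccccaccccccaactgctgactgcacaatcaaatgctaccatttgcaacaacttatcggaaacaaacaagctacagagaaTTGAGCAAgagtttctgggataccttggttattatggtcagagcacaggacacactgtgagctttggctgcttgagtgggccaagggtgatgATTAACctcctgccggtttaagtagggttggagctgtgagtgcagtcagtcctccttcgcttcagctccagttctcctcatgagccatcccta
Fgb: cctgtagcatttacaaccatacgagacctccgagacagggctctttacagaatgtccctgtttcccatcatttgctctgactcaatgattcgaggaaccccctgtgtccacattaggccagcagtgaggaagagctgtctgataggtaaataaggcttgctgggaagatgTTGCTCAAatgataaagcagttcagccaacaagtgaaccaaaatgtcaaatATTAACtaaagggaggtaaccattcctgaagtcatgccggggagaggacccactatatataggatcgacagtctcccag

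The vitamin K-dependent clotting proteases were split, with *F9* and *F7* higher and *F2* and *F10* lower. Prothrombin, encoded by *F2* (chr2:91625320-91636414, - strand), is the precursor of thrombin. *F2* was at 549.6, 550.0 and 559 FPKM in WT and at 308, 303 and 303 FPKM in mutant livers. Both groups were tight and far apart (log2 fold change -0.86 ± 0.023 SE, limma adjusted p = 1.27e-06), and with median-ratio or quantile scaling *F2* passed 2-fold, at -1.05 and -1.0.

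*F7*, *F10* and *Proz* stand in a row on chromosome 8, 1498 and 4237 bases apart, and did not share a direction. *F10*, whose product activates prothrombin, was at 234, 231 and 237 FPKM in WT and at 172, 167 and 171 FPKM in mutant livers (log2 fold change -0.46, limma adjusted p = 3.86e-05). *F7*, which starts clotting with tissue factor, had a log2 fold change of 0.19 (limma adjusted p = 0.00972), which turned to -0.0012 and -0.10 under the other scalings and passed with neither. *Proz*, a cofactor of a factor X inhibitor, had one of 0.20 (limma adjusted p = 0.00355), which was 0.0066 with median-ratio and -0.087 with quantile scaling and passed with neither. *F9*, the hemophilia B gene on chromosome X, was at 36.3, 40.6 and 39.2 FPKM in WT and at 56.9, 57.8 and 54.3 FPKM in mutant livers (log2 fold change 0.53, limma adjusted p = 0.000328).

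Of the cofactors, *F5* (chr1:164151838-164220277, + strand), which speeds prothrombin activation, was the most abundant, at 45.3, 45.6 and 43.1 FPKM in WT and 39.5, 39.4 and 39.6 FPKM in mutant livers. The difference was small and without overlap (log2 fold change -0.17 ± 0.037 SE, limma adjusted p = 0.00809). *F8*, the hemophilia A gene, was scarce at 1.58, 1.35 and 1.47 FPKM in WT and 0.645, 0.787 and 0.656 FPKM in mutant livers, a 2.10-fold lower mean (log2 fold change -0.54, limma adjusted p = 0.000975). *F3*, which encodes tissue factor, had overlapping groups, at 1.68, 0.868 and 1.13 against 1.77, 1.65 and 1.9 FPKM (limma adjusted p = 0.0834), and passed as higher without the first WT liver (limma adjusted p = 0.0109).

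In the contact system 4 of 5 genes were lower at any fold (against 19.6% of all tested genes) and *Klkb1* was higher. *Kng1* (chr16:23057865-23082078, + strand), which encodes the kininogen from which bradykinin is cut, was at 1154, 1167 and 1151 FPKM in WT and at 502, 529 and 490.4 FPKM in mutant livers. It was the only clotting member past 2-fold on the log2(FPKM + 1) scale, with a 2.28-fold lower mean (log2 fold change -1.19 ± 0.033 SE, limma adjusted p = 1.45e-06). Its copy *Kng2*, 28.4 kb away, was at 105, 114 and 103 FPKM in WT and 81.7, 77.1 and 73.6 FPKM in mutant livers (log2 fold change -0.47, limma adjusted p = 0.000751). The ratio of *Kng2* to *Kng1* was 0.0929 ± 0.00409 in WT and 0.153 ± 0.00890 in mutant livers (SD, n = 3), and they share under 6% of their windows.

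*F11* and *Klkb1* encode homologous proteases and are neighbours on chromosome 8, 4.66 kb apart. *F11* was at 48.9, 52.6 and 51.5 FPKM in WT and 36.1, 35.7 and 34.7 FPKM in mutant livers, and *Klkb1*, plasma prekallikrein, at 43.0, 41.6 and 41.9 against 49.1, 47.8 and 48.1 FPKM. The order of both genes was reversed between groups in every liver, the ratio of *Klkb1* to *F11* being 0.829 ± 0.0455 in WT and 1.36 ± 0.0239 in mutant livers (SD, n = 3). The log2 fold changes were -0.51 and 0.19 (limma adjusted p = 0.000136 and 0.00368), and that of *Klkb1* was 0.0012 with median-ratio and -0.063 with quantile scaling and passed with neither. *Klkb1* shares 42.1% of its windows with the overlapping *Gm45753*, which was at or below 0.00398 FPKM in every liver. *F12*, which starts the contact cascade, was at 353, 294 and 352 FPKM in WT and 251, 257 and 253 FPKM in mutant livers (log2 fold change -0.39, limma adjusted p = 0.00574).

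**Figure D4:**
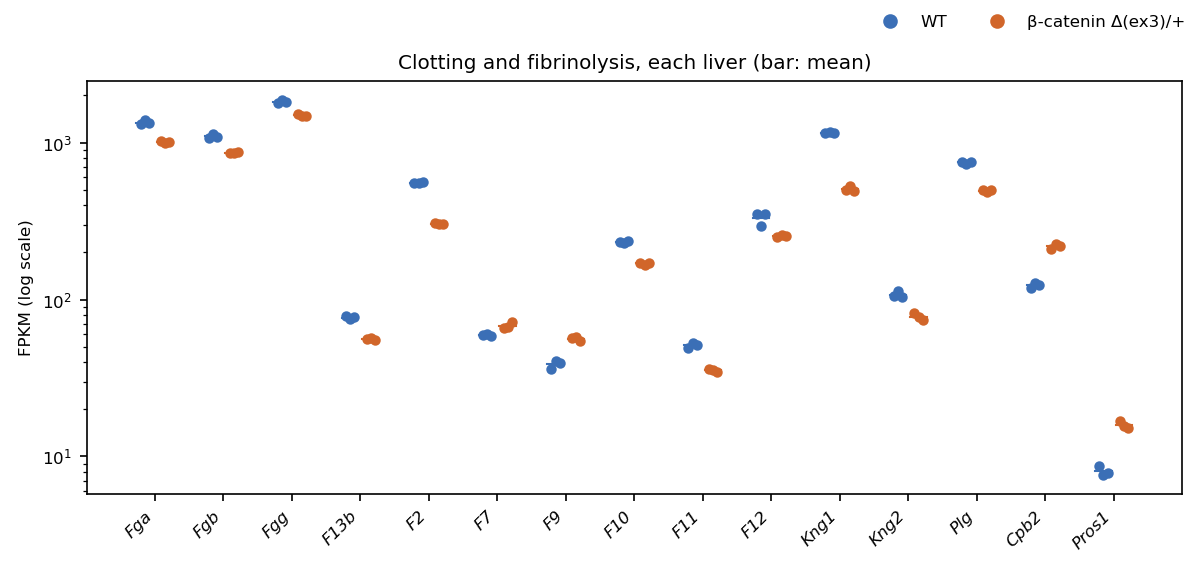
FPKM (log scale) of 15 clotting and fibrinolysis genes in each of the 3 WT and 3 *β-cateninΔ(ex3)/+* livers; points are livers and bars group means. *F7* (whose sign turned with median-ratio and quantile scaling), *F9*, *Cpb2* and *Pros1* lie higher in the mutant livers and the other 11 genes lower, by the widest margin for *Kng1* (means of 1157 and 507 FPKM).

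The natural anticoagulants went both ways. At any fold 2 of 5 were higher (40%, near the 37.4% of all tested genes) and 3 lower (60%, against 19.6%). Of the 2 higher genes, *Proz* lost its call with median-ratio and quantile scaling. Protein C, encoded by *Proc*, inactivates factors V and VIII, and *Proc* was at 258, 236 and 257 FPKM in WT and 174, 166 and 169 FPKM in mutant livers. Its cofactor protein S (*Pros1*, chr16:62854307-62929346, + strand) was at 8.75, 7.60 and 7.84 FPKM in WT and 16.9, 15.6 and 15.2 FPKM in mutant livers. The enzyme gene was lower and the cofactor gene higher in every mutant liver (log2 fold changes -0.56 ± 0.045 and 0.90 ± 0.068 SE, limma adjusted p = 0.000138 and 9.98e-05), and their ratio went from 31.1 ± 1.64 to 10.7 ± 0.386 (SD, n = 3).

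*Tfpi*, the inhibitor of the tissue factor complex, was at 3.27, 3.64 and 3.39 FPKM in WT and 1.5, 1.41 and 1.55 FPKM in mutant livers, a 2.31-fold lower mean. Its log2 fold change was -0.84 (limma adjusted p = 7.5e-05) and -1.16 when 0.1 in place of 1 FPKM was added before the logarithm. *Thbd*, the endothelial receptor through which thrombin activates protein C, was at 1.36, 1.75 and 1.37 against 1.19, 0.958 and 0.916 FPKM (log2 fold change -0.30, limma adjusted p = 0.0324). The call of *Thbd* was lost without replicate 2 or replicate 3 of either group (limma adjusted p = 0.0531 to 0.0925). Beside *F8*, *Tfpi* and *Thbd*, all 10 liver endothelial markers were lower in the mutant livers, 2 of them past 2-fold, with a summed level of 116 to 118 FPKM in WT and 75.8 to 79.0 FPKM in mutant livers. The part of endothelial cells in these levels was not tested.

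In fibrinolysis, *Plg* was lower and *Cpb2* higher in the mutant livers. Plasminogen, encoded by *Plg* (chr17:12378608-12419385, + strand), was at 757, 736 and 755 FPKM in WT and 497, 486 and 497 FPKM in mutant livers. All mutant livers were lower, with little spread (log2 fold change -0.60 ± 0.025 SE, limma adjusted p = 7.14e-06). *Cpb2*, the carboxypeptidase that removes the plasmin-binding sites from fibrin, was at 119, 128 and 123 FPKM in WT and 209, 226 and 220.3 FPKM in mutant livers (1.77-fold ratio of means; log2 fold change 0.82, limma adjusted p = 2.17e-05).

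The plasminogen activators were near the limit of measurement. *Plat* was at 0.171, 0.0843 and 0.115 FPKM in WT and 0.263, 0.296 and 0.212 FPKM in mutant livers and was not tested, and *Plau* had overlapping groups, at 1.57, 2.13 and 1.32 against 1.28, 1.40 and 1.12 FPKM (limma adjusted p = 0.163). *Hrg*, the histidine-rich glycoprotein that binds plasminogen and heparin, differed least among the members that passed, at 513, 501 and 512 against 470.5, 482 and 487 FPKM (log2 fold change -0.085, limma adjusted p = 0.0307). The call of *Hrg* was lost without any 1 liver other than the second WT liver (limma adjusted p = 0.0553 to 0.0907). *Hgfac*, the protease that activates hepatocyte growth factor, was lower at 107, 99.8 and 106 against 64.1, 67.5 and 68.9 FPKM (log2 fold change -0.63, limma adjusted p = 7.38e-05).

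Ratios between paired members were computed within each liver, so that a common scaling of a library does not move them. None of the 12 ratios overlapped between groups, and an exact two-sided permutation test gave p = 0.1 for each, the smallest value that 3 against 3 livers allow (0.1 after adjustment over the 12). Single genes did not overlap in 66.0% of all tested genes and 90.6% of members. The share for ratios of other gene pairs was not computed, so whether the separation is particular to these pairs is not known. Ratios of genes whose protein chains join in fixed numbers ranged from almost level (*Fgb* to *Fga*, log2 difference 0.064) to a wide shift (*C8g* to *C8b*, -1.18). The widest shifts were for *C4a* to *C4b* (1.62) and *Proc* to *Pros1* (-1.54).

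**Figure D5:**
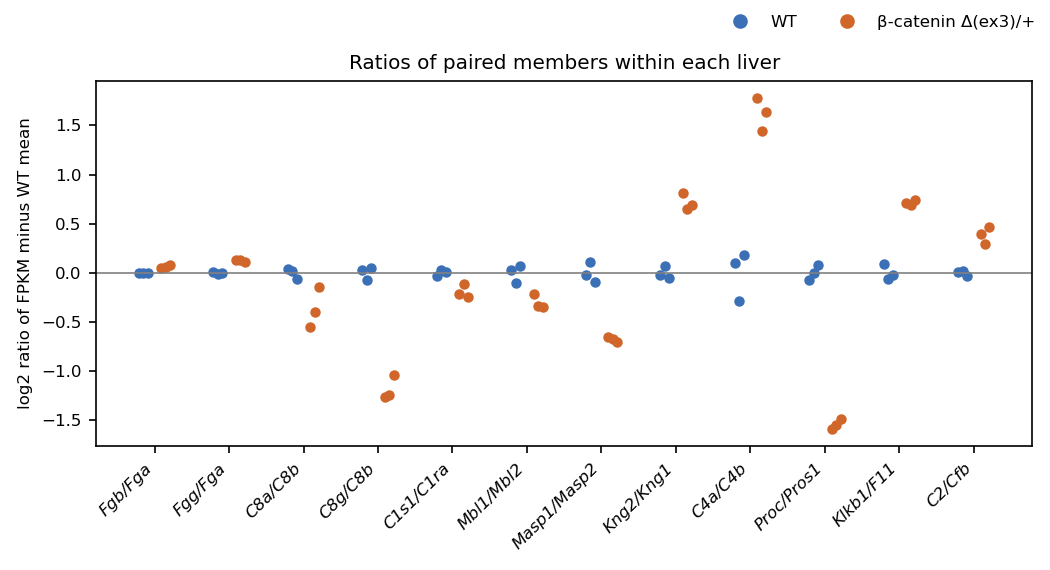
Ratio of FPKM between 12 pairs of members in each of the 3 WT and 3 *β-cateninΔ(ex3)/+* livers, as log2 ratio minus the mean of the WT livers; points are livers and the line marks the WT mean. The ratios of the fibrinogen genes lie near the line in all livers. In every mutant liver *C8g* to *C8b* and *Proc* to *Pros1* lie more than 1 log2 unit below it, and *C4a* to *C4b* more than 1 above.

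The members varied little between livers of a group. Over the 39 members with at least 20 FPKM in both groups, the coefficient of variation had a median of 2.72% (0.749% to 10.1%) in WT and 1.77% (0.272% to 49.1%) in mutant livers, the highest value being that of *Cfhr2*. The 6 most abundant members, *Vtn*, *Fgg*, *C3*, *Fga*, *Kng1* and *Fgb*, held 60.3% of the summed member FPKM in WT and 56.2% in mutant livers. Of these only *C3* was higher in the mutant livers.

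Genes of the same systems outside the 55 members, gave the wider setting. Of 28 further complement genes 22 were tested. At any fold 13 were higher (59.1%, against 37.4% of all genes) and 2 lower (9.09%, against 19.6%). Past 2-fold, the genes of the C1q chains were higher, at log2 fold changes of 1.56 (*C1qa*), 1.20 (*C1qb*) and 1.32 (*C1qc*), as were *Susd4* (3.08), an inhibitor of complement, *Cpn2* (1.32), a subunit of the carboxypeptidase that inactivates anaphylatoxins, and *Itgb2* (1.05), a chain of the leukocyte complement receptors; *Colec10* was lower (-1.91). *Susd4* reached the FPKM minimum only through the mutant livers (means of 0.321 and 10.1 FPKM), so its call was built in. C1q is made largely by macrophages, and properdin by myeloid cells more widely. Of the 10 Kupffer cell and macrophage markers, 6 were higher past 2-fold and 1, *Marco*, was lower. Their summed level was 367 to 383 FPKM in WT and 904 to 917 FPKM in mutant livers. The neutrophil and monocyte list went the other way, with 6 of 9 tested genes lower past 2-fold, 3 higher at any fold, and a summed level of 335 to 360.2 FPKM in WT and 35.8 to 37.4 FPKM in mutant livers. The macrophage list includes *C1qa* and *C1qb*, and the part of macrophages, neutrophils or monocytes in *Cfp*, *Fcna* and C1q levels was not tested.

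Of 27 further clotting and fibrinolysis genes 21 were tested. At any fold 10 were higher (47.6%, against 37.4% of all genes) and 5 lower (23.8%, against 19.6%). Their median log2 fold change was 0.23, so these genes did not share the lower direction of the clotting members. Past 2-fold, *S100a10* (log2 fold change 2.69) and *Fgl2* (1.11) were higher, the former encoding a cell-surface plasminogen receptor with *Anxa2*, and *A2m* (-2.29), the broad protease inhibitor, and *Anxa2* (-1.05) were lower. *A2m* reached the FPKM minimum only through the WT livers (means of 3.91 and 0.00396 FPKM), so its call was built in. *C3*, *C9*, *C4bp* and the fibrinogen genes are also acute-phase genes in mammals. Of 8 further acute-phase genes, all 8 were higher at any fold and 6 past 2-fold, including *Saa1* (1.11 to 1.47 FPKM in WT, 255 to 264 FPKM in mutant livers), with a summed level of 2613 to 2685 FPKM in WT and 6739 to 7832 FPKM in mutant livers. *Orm2* and *Saa2* of that list reached the FPKM minimum only through the mutant livers, so their calls were built in. Of the members named here, *C3*, *C9* and *C4bp* were higher and the fibrinogen genes lower in the same livers. The part of an acute-phase response in any member's level was not tested.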

How the data were processed

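RNA from 3 WT and 3 *β-cateninΔ(ex3)/+* livers had been sequenced as poly(A), strand-marked, paired-end libraries on a NovaSeq instrument. The submitters' processing notes list cutadapt 1.9, HISAT2 2.0.4, StringTie 1.3.4d, DESeq2 and edgeR without roles; the genome build is not given in the sources used here. Gene starts and ends matched GENCODE M21 (GRCm38) for 28911 of 31950 genes and 50 of the 55 members. The authors deposited FPKM per gene and liver, a unit already divided by transcript length and library size, and every value column was used (0 left out). Counts were not recoverable: 25.3% to 35.1% of the low values lay within 0.02 of a whole read (4% by chance), at spacings that would mean 49.0 to 49.5 M reads per WT and 34.0 to 39.1 M per mutant library. Depth is therefore only an estimate, and no count model was run.

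Genes with a mean of at least 0.5 FPKM over the 6 livers (13243) were tested with limma 3.58.1 in R 4.3.3 on log2(FPKM + 1), with an intensity trend, Benjamini-Hochberg adjustment over all tested genes, and calls at an adjusted p under 0.05 and at least 2-fold. Fold changes are on that scale and understate low genes. Nothing in the labels says whether the livers of a group were collected together. The limma p-values set the difference between groups against the spread between 3 livers a group, which limma estimates with help from the other genes. No libraries held the same values: at most 2 nonzero values were equal in any pair of a group. The script was checked on simulated data. Ratios were tested by exact permutation in Python 3.11.15.

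The members and lists were chosen with earlier results of these data known. Values in each liver were to be given for members past both thresholds and for the most abundant of each role, and other genes of the same systems named only past both thresholds; values of further members were added after they had been seen. Alternatives were another pseudocount, no filter and a filter of 1 FPKM, median-ratio and quantile scaling, no trend, a replicate block and leaving out each liver. Promoter windows are from RefSeq (GRCm38.p6).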

Additional observations from a re-analysis of the deposited data

How the results depend on the processing

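Of 689 comparisons of a member's fold change with an alternative setting, 674 kept their direction and their call past 2-fold, and 647 of these also kept their side of the adjusted p threshold at any fold. In 30 comparisons 10 members lost a call at any fold (*C1ra*, *C1s1*, *F7*, *Fcna*, *Hc*, *Hrg*, *Klkb1*, *Mbl1*, *Proz* and *Thbd*), and in 6 a call was gained. The 9 members past 2-fold were called under every alternative fit and with any 1 liver left out, the call of *Cfd* being built in. A pseudocount of 0.1 and both scalings gave 3 in place of 2 lower. At a threshold of 1.5 on the log2 scale 6 members were higher and 0 lower. Without any 1 liver, 24 members were higher and 21 to 23 lower at any fold.

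The median log2 fold change of the members was 0.11 as reported, -0.075 with median-ratio scaling, -0.16 with quantile scaling, 0.15 without the filter, and 0.085 to 0.15 without any 1 liver. With median-ratio scaling the sign turned for *C1s1* (-0.00031), *C2* (-0.075), *Mbl1* (-0.041), *Masp2* (-0.082) and *F7* (-0.0012), and with quantile scaling for *C2* (-0.20), *Mbl1* (-0.030), *Masp2* (-0.16), *F7* (-0.10), *Klkb1* (-0.063) and *Proz* (-0.087). *Cfhr2* ranged from -0.035, without the second mutant liver, to 0.54 without any 1 liver. *F2* passed 2-fold with median-ratio (-1.05) and quantile scaling (-1.0), and *Tfpi* with a pseudocount of 0.1 FPKM (-1.16), under which 2705 of all genes were called against 1680. Which scaling is right was not tested, since no spike-in or count was used.

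Livers sharing a replicate number are different animals, and their deviations from the group means correlated at 0.027, 0.021 and -0.0054 over genes, so the numbers did not pair them. With the replicate block, 7 members were higher and 2 lower past 2-fold, 24 higher and 21 lower at any fold, and 1673 of all genes were called. Among the members it changed the any-fold calls of *Hrg* and *Thbd* (limma adjusted p = 0.0794 and 0.0699) and no other call. Precision rests on 3 livers a group and an uncertain depth.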
